A study of Mus musculus with 45 samples.

Results

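The 10 genes Fos, Fosb, Jun, Junb, Egr1, Egr2, Atf3, Nr4a1, Dusp1 and Ier2 are immediate early genes that are also widely used as marks of tissue dissociation. They were taken by name from the 42929 genes that 3 RNA-seq tables of C57BL/6 mice have in common, and all 10 were found in each table. The study set microglia of organotypic brain slices beside microglia of the living brain. Its slice table held 29 samples of microglia sorted from brain slices of newborn pups, which had no cerebellum, had been cultured for 2 weeks and were pooled at 2 to 3 slices per sample. The study describes 4 independent slice experiments, without saying which sample came from which. Of these, 9 samples were from slices kept in medium alone, 11 from slices given 50 ng/mL TNF and 9 from slices given 20 ng/mL GM-CSF, each for 24 h. The adult table held microglia sorted from mice 24 h after an intraperitoneal injection of PBS (4 samples) or of 1 mg/kg LPS (4 samples). The brain table held tissue that was never dissociated into cells, from 4 untreated mice and from 4 mice 24 h after 1 mg/kg LPS. All of these adults were females of 10 to 15 weeks and were perfused with ice-cold PBS and EDTA. The labels name no transgene or deletion in any group. Microglia were released with a dounce homogeniser on ice, freed of myelin on a Percoll gradient spun at 22 °C, and sorted as live CD11b-high, CD45-intermediate cells into lysis buffer, whereas brain tissue was snap frozen.

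Immediate early genes are transcribed within minutes of a signal from transcription factors that the cell already holds, such as SRF with its ternary complex partners, CREB and NF-kB, so that no new protein is needed first. Their messages are short-lived and are removed through AU-rich elements that proteins such as Zfp36 bind. Fos and Fosb pair with Jun and Junb to form the AP-1 transcription factor, and Atf3 is a stress-induced member of the same leucine zipper class. Egr1 and Egr2 are zinc finger transcription factors, Nr4a1 is an orphan nuclear receptor, Dusp1 is a phosphatase that switches off p38 and JNK kinases, and Ier2 is a small nuclear regulator of transcription. In the brain Fos, Egr1 and Nr4a1 follow the firing of neurons. In microglia they rise with handling, above all with warm enzymatic dissociation, and with stimuli such as LPS.

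The promoters of 6 members are shown, each of them called in at least 1 of the treatment comparisons below. Jun and Atf3 were called too, and their windows are not printed. Each window is the 250 bases before the start site in RefSeq (GRCm38.p6), written 5′ to 3′ on the strand of the gene, with motif matches in capitals. RefSeq windows were matched for 9 of the 10 members; Ier2 is named only, and the Egr1 window is not printed. RefSeq holds 5 windows for different starts of Egr2, of which 1 is printed. The motifs searched on both strands were the cAMP response element TGACGTCA, the AP-1 site TGANTCA, the EGR site GCGNGGGCG, the serum response element core known as the CArG box, and the NF-kB site. Of 32851 such windows in the genome, 1.55%, 6.75%, 4.70%, 1.47% and 3.90% held these in turn.
Fos at chr12:85473640-85473889, plus strand: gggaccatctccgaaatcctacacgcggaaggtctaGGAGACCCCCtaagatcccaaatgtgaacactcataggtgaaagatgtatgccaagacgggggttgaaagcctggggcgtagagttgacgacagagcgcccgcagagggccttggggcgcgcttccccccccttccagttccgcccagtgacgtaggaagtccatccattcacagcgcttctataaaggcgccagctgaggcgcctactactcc
Fosb at chr7:19310046-19310295, minus strand: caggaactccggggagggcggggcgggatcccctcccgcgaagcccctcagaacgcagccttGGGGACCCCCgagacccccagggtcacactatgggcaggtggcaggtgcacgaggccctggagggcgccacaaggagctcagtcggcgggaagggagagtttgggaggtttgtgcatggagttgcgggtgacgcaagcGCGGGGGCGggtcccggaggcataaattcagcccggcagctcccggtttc
Dusp1 at chr17:26508473-26508722, minus strand: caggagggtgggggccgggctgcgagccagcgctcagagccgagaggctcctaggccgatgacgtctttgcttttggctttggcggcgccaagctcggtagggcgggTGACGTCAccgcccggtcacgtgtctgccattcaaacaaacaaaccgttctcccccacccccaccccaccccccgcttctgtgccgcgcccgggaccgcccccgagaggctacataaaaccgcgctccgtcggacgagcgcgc
Egr2 at chr10:67537619-67537868, plus strand: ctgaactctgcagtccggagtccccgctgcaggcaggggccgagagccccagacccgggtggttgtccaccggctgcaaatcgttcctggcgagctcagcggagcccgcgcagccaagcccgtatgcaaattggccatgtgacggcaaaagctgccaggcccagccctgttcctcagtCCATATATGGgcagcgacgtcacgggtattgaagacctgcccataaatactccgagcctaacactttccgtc
Nr4a1 at chr15:101266596-101266845, plus strand: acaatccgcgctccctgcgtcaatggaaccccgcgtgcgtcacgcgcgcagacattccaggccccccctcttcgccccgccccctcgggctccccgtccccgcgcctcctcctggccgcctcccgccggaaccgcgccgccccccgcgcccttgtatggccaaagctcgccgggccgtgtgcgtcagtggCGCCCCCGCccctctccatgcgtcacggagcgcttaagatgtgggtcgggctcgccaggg
Junb at chr8:84978749-84978998, minus strand: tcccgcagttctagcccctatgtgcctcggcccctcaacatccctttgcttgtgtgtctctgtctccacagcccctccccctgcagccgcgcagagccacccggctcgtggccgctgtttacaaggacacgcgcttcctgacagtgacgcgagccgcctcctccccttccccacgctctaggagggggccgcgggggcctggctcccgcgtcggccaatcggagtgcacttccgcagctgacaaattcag
The capitals mark an NF-kB match in Fos 214 to 205 bases before the start, an NF-kB match 188 to 179 bases and an EGR match 50 to 42 bases before the start of Fosb, a cAMP response element in Dusp1 143 to 136 bases before the start, a CArG box in Egr2 72 to 63 bases before the start, and an EGR match in Nr4a1 60 to 52 bases before the start. The windows of Junb, Jun and Atf3 held no match to these letters. A match is a description of the letters and not a measured binding site. All the windows were rich in G and C, from 58.4% in Fos to 74.4% in Nr4a1 among those printed, against a median of 52.4% over all promoters.

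The libraries held 5973364 to 9165485 counted reads in the slice table, 11391564 to 14216005 in the adult table and 8199863 to 10368578 in the brain table. In the sorted samples mitochondrial genes took 0.409% to 1.02% of the reads, against 5.54% to 6.10% in brain tissue. In the slice table, however, 6 of 13 mitochondrial protein-coding genes were at 0 in every library, with a mean of at least 1 CPM in both other tables. The slice percentages are thus not comparable with the others. By this rule 63 protein-coding genes were at 0 in the slice table and 14 in the adult table. All 7 microglial markers were detected in every group: their summed level was 19731 to 28108 CPM (reads of a gene scaled to the library size) in medium slices, 11297 to 15222 CPM with TNF, 14728 to 16548 CPM with GM-CSF, 54062 to 59970 CPM after PBS, 40994 to 44442 CPM in sorted cells after LPS, and 291 to 329 CPM in untreated brain. No library was a copy of another. In brain tissue 181 of 20535 protein-coding genes, all on chromosomes 1 and 2, were listed at 0 in all 8 libraries while above 1 CPM in both sorted tables. No member was among them. Atf3 lies on chromosome 1, but 27.8 Mb from the nearest such gene.

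In untreated brain tissue the members were led by Egr1 and Nr4a1, and Atf3 was close to absent. Per kilobase of exon the mean levels ran from Egr1 at 53.4 CPM per kb and Nr4a1 at 24.0 CPM per kb, through Junb at 19.5, Jun at 15.3, Fos at 10.6, Dusp1 at 10.5, Ier2 at 5.20, Egr2 at 2.15 and Fosb at 1.85 CPM per kb, to Atf3 at 0.281 CPM per kb. Without division by length, Egr1 was at 164, 259, 223 and 314 CPM in the 4 untreated brains. Nr4a1 was at 31.0, 94.3, 77.6 and 134 CPM, and Fos at 8.32, 26.1, 24.5 and 40.8 CPM. In all of these genes the first brain was the lowest and the last the highest. Atf3 had only 8, 5, 9 and 2 reads (rounded expected counts, as in all read numbers of the brain and adult tables) in the same libraries, or 0.21 to 0.93 CPM.

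Microglia sorted from PBS-injected adults ranked the members otherwise. Junb led at 88.6 CPM per kb, followed by Jun at 70.3, Ier2 at 11.7 and Atf3 at 8.13 CPM per kb, while Dusp1, Fos and Egr1 lay between 2.17 and 2.29 CPM per kb, well within their spreads. The 4 libraries gave Junb 197, 209, 201 and 209 CPM, and Jun 205, 213, 173 and 305 CPM. These 2 genes were at the median percentiles 98.1 (Junb) and 97.2 (Jun) among protein-coding genes within a library. Fos, by contrast, was at 0.22, 4.16, 1.69 and 15.12 CPM, and Egr1 at 1.94, 14.1, 5.07 and 17.7 CPM. For both, the first library was the lowest and the last the highest, with several-fold gaps inside 1 group. Fosb had 0, 0, 1 and 19 reads.

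Slice microglia kept in medium held high levels of 7 of the 10 messages. Per kilobase they were led by Junb at 147 CPM per kb and Fos at 133 CPM per kb, followed by Atf3 at 90.1, Dusp1 at 83.6, Ier2 at 67.1, Jun at 43.7 and Egr1 at 36.9 CPM per kb. Egr2 at 10.8, Nr4a1 at 1.87 and Fosb at 0.646 CPM per kb were last. Over the 9 libraries Fos had a mean of 312 ± 140 CPM (SD; lowest 128, median 269, highest 567), and Dusp1 277 ± 148 CPM (lowest 72.4, median 249, highest 543). Both varied several-fold between libraries of 1 treatment. Junb was steadier, at 339 ± 40.6 CPM (280, 355 and 400 as lowest, median and highest). Neighbours in the order such as Junb and Fos, or Atf3 and Dusp1, lay within these spreads. Summed over all 10 members, medium slice microglia had 1221 to 2254 CPM, PBS adult microglia 421 to 608 CPM and untreated brain 296 to 703 CPM, so that the sums of the last 2 groups overlapped and the slice sums lay above both.

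**Figure D1:**
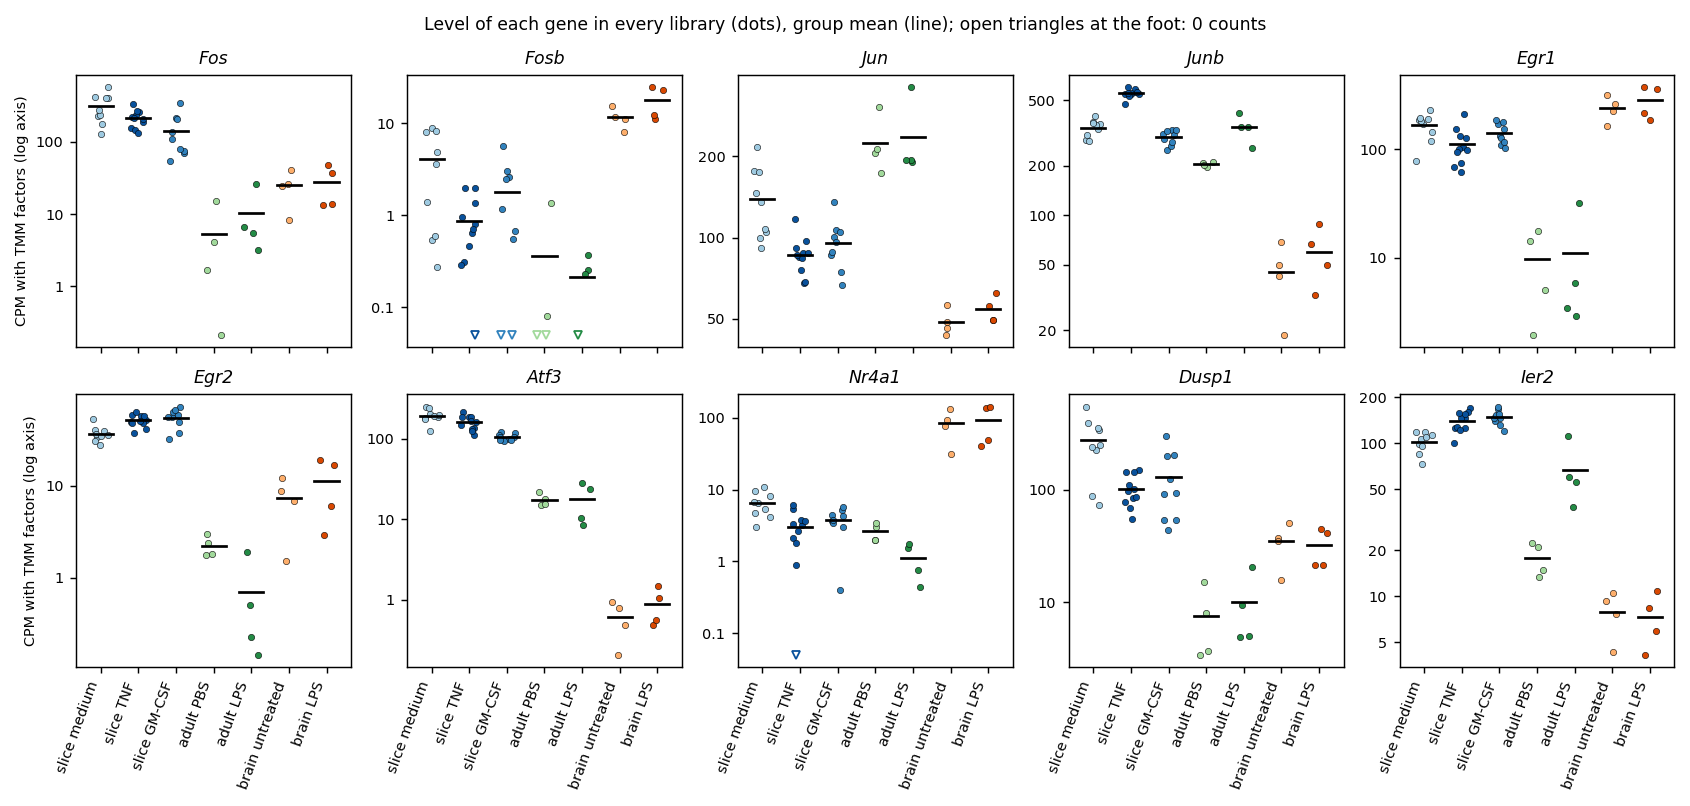
Level of each of the 10 members in every library, in CPM on a log axis that differs between panels, with a dot per library, a line at the mean of each of the 7 groups and open triangles for libraries with 0 counts. Fos, Junb, Egr1, Egr2, Atf3, Dusp1 and Ier2 of every medium slice library lie above all PBS adult libraries, as for 17.5% of the genes tested. Egr1, Nr4a1 and Fosb have their highest group means in brain tissue.

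The levels in sorted adult cells were then set against undissociated tissue. All 10 members differed between PBS adult microglia and untreated brain, 4 of them higher and 6 lower in the sorted cells. Of all 16676 genes tested in this comparison 79.9% were called, 33.5% higher and 46.4% lower, so that a call is no mark of these genes. Here and below, to be called a gene needed both a fold over 1.5 and an adjusted p under 0.05. Atf3 was higher by 4.87 on the log2 scale (SE 0.50, adjusted p = 1.06e-07), Jun by 2.24 (SE 0.23, adjusted p = 2.35e-07), Junb by 2.22 (SE 0.34, adjusted p = 2.61e-05) and Ier2 by 1.21 (SE 0.38, adjusted p = 0.00832). Lower were Nr4a1 with a log2 difference of -4.95 (SE 0.62, adjusted p = 4.33e-06), Fosb with -4.89 (SE 0.65, adjusted p = 3.33e-06) and Egr1 with -4.57 (SE 0.70, adjusted p = 3.34e-05). Fos at -2.18 (SE 0.90, adjusted p = 0.0352), Dusp1 at -2.15 (SE 0.57, adjusted p = 0.0031) and Egr2 at -1.66 (SE 0.69, adjusted p = 0.0344) were lower by less. The median log2 difference was -1.90 over the 10 members and -0.38 over all genes. The calls of Fos and Egr2 were the least firm: leaving out 1 library at a time ended that of Fos for 6 of 16 libraries (PBS 1, 2 and 3 and untreated brain 2, 3 and 4, adjusted p = 0.0541 to 0.0932) and that of Egr2 for 5 of 16 (PBS 1, 2 and 3 and untreated brain 2 and 4, adjusted p = 0.0602 to 0.105). Neuronal markers summed to 5811 to 5938 CPM in untreated brain and to no more than 15.6 CPM in any sorted library, and their part in the lower Egr1, Nr4a1 and Fosb of sorted cells was not tested. Cell type, dissociation, library kit, read layout and the injection of the controls all coincide with this contrast and cannot be told apart. In bulk samples, fewer cells that carry a message and less of it per cell cannot be told apart either.

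Against the same brain tissue, 8 members differed in medium slice microglia, 7 of them higher, where 80.5% of 16396 genes were called, 30.9% higher and 49.6% lower. Atf3 was higher by 8.37 on the log2 scale (SE 0.35, adjusted p = 5.13e-25), from 0.606 ± 0.324 CPM (n = 4) in brain to 194 ± 36.0 CPM (n = 9) in slices. Ier2 was higher by 3.77 (SE 0.24), Fos by 3.74 (SE 0.60), Dusp1 by 3.08 (SE 0.53), Junb by 3.00 (SE 0.20), Egr2 by 2.41 (SE 0.36) and Jun by 1.60 (SE 0.20), with adjusted p-values of 9.75e-07 or less. Nr4a1 was lower, with a log2 difference of -3.59 (SE 0.40, adjusted p = 5.43e-11). Egr1 at -0.44 (SE 0.37, adjusted p = 0.256) and Fosb at -1.42 (SE 0.73, adjusted p = 0.0668) did not pass. The median log2 difference was 2.71 over the members and -0.72 over all genes. Set side by side, Atf3, Jun, Junb and Ier2 were higher than brain in both kinds of sorted cell and Nr4a1 was lower in both. Fos, Egr2 and Dusp1 were lower than brain in adult cells and higher in slice cells. Both comparisons share the untreated brain libraries. Cell type, dissociation, age, culture, kit and sequencing run coincide with the slice contrast and cannot be told apart.

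The 2 kinds of sorted control cell, made with the same library kit and the same sort, were also compared directly. Here 9 of the 10 members were higher in medium slice microglia, where 55.4% of 16396 genes were called, 25% higher and 30.4% lower. Fos was higher by 6.04 on the log2 scale (SE 0.70), Dusp1 by 5.36 (SE 0.61), Egr1 by 4.26 (SE 0.50), Egr2 by 4.20 (SE 0.41) and Atf3 by 3.65 (SE 0.24). Fosb at 3.59 (SE 0.99), Ier2 at 2.69 (SE 0.22), Nr4a1 at 1.49 (SE 0.48, adjusted p = 0.00643) and Junb at 0.91 (SE 0.18) were higher by less. For 7 genes (Fos, Junb, Egr1, Egr2, Atf3, Dusp1 and Ier2) every slice library lay above every adult library, as it did for 17.5% of the 16396 genes tested. Jun went the other way, at 139 ± 43.1 CPM (n = 9) in slices and 224 ± 56.9 CPM (n = 4) in adults. Its log2 difference of -0.51 (SE 0.18, adjusted p = 0.0131) was under the fold limit at 1.42-fold, and was called at -0.61 without PBS library 3. Thus the order of Fos and Jun was turned round between the groups: mean Fos was 312 CPM beside a mean Jun of 139 CPM in slices, and 5.30 CPM beside 224 CPM in adults. The median log2 difference was 3.62 over the members and -0.02 over all genes. Age, culture, read layout and run coincide with this contrast.

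**Figure D2:**
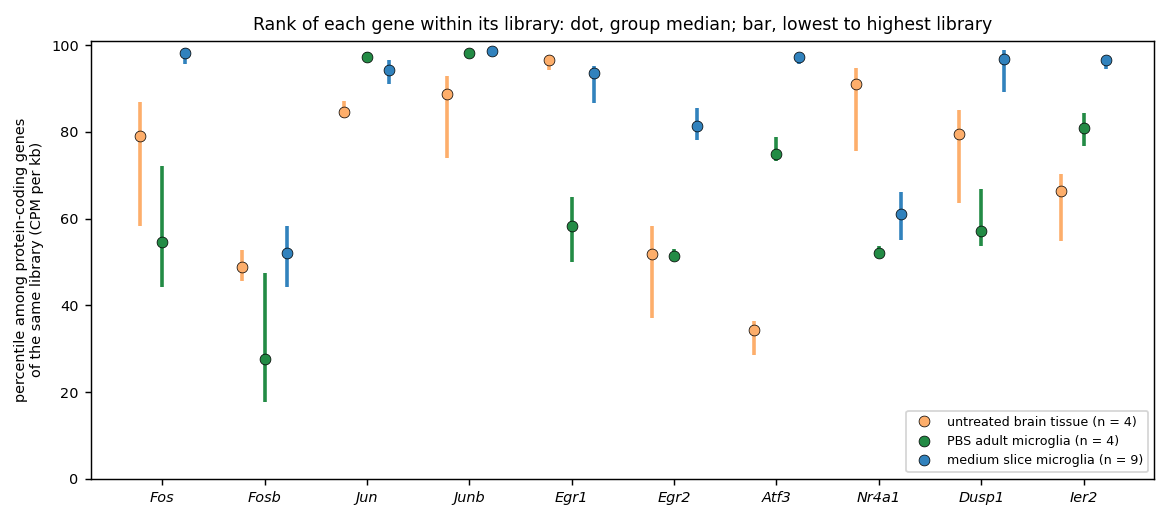
Rank of each member within a library, as the percentile of its CPM per kb among 20535 protein-coding genes found in all 3 tables, for untreated brain, PBS adult microglia and medium slice microglia, with a dot at the group median and a bar from the lowest to the highest library. Fos has a median percentile of 79.1 in brain, 54.6 in adult microglia and 98.1 in slice microglia, whereas Junb lies at 88.8, 98.1 and 98.5.

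The percentile within a library, taken on CPM per kb, does not use a scaling across tables. Atf3 had a median percentile of 34.2 in untreated brain, 74.9 in PBS adult microglia and 97.3 in medium slice microglia. Dusp1 went from 79.5 in brain to 57 in adult and 96.7 in slice microglia, and Egr1 from 96.6 to 58.3 and 93.6. Nr4a1 stood at 91 in brain and at 52 and 61.1 in the sorted cells. Egr2 did not separate brain from adult cells on this scale, at 51.7 and 51.4, and reached 81.3 in slices. Ier2 stood at 66.3, 80.8 and 96.6 in the same order.

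TNF, a cytokine that signals to NF-kB and to JNK and p38 kinases, shifted the members in both directions after 24 h. Junb rose, and Fosb, Dusp1, Nr4a1 and Jun fell, so that 5 of 10 were called where 20.8% of 11313 genes were called, 9.1% higher and 11.7% lower. Junb was at 280, 355 and 400 CPM (lowest, median, highest) in medium and at 475, 552 and 601 CPM with TNF. All 11 TNF libraries lay above all 9 medium libraries, a separation that 6.25% of the genes tested showed. Its log2 fold change was 0.69 (SE 0.06, adjusted p = 4.25e-11), a 1.62-fold rise. Dusp1 was at 72.4, 249 and 543 CPM in medium and at 54.7, 96.4 and 148 CPM with TNF, so that the ranges overlapped at the low end of the medium group. It fell by 1.45 on the log2 scale (SE 0.35, adjusted p = 0.00126), or 2.74-fold. Jun was at 91.6, 136 and 217 CPM in medium and at 67.8, 86.6 and 117 CPM with TNF, and fell by 0.69 (SE 0.13, adjusted p = 7.26e-05). Fosb, at 0.273 to 8.87 CPM in medium and 0 to 2.00 CPM with TNF, fell by 2.19 (SE 0.66, adjusted p = 0.0079), and Nr4a1, at 3.04 to 10.9 CPM and 0 to 6.01 CPM, fell by 1.13 (SE 0.40, adjusted p = 0.0214). Both are low in these cells, with only a few reads behind some values.

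The other 5 members were not called with TNF. Egr2 (log2 fold change 0.48, SE 0.13, adjusted p = 0.00246), Ier2 (0.45, SE 0.09, adjusted p = 0.000139), Egr1 (-0.57, SE 0.19, adjusted p = 0.0144) and Atf3 (-0.28, SE 0.10, adjusted p = 0.0297) had an adjusted p under 0.05 and stayed under the fold limit. Fos, at 128, 269 and 567 CPM in medium and 129, 213 and 330 CPM with TNF, gave -0.56 (SE 0.29, adjusted p = 0.136). The median log2 fold change was -0.57 over the 10 members and -0.03 over all genes. Slice titles carry the codes 1A, 1B, 2A and 2B, whose meaning the labels do not give, and each treatment has libraries of both numbers. Mitochondrial genes took 0.458% to 0.572% of the reads in medium libraries of codes 1 and 0.723% to 1.02% in those of codes 2. The shares were 0.416% to 0.464% and 0.564% to 0.869% with TNF, and 0.490% to 0.555% and 0.732% to 0.917% with GM-CSF. The part of this in the members' levels was not tested. With the treatments in the fit, 0 of 10 members were called between codes 2 and codes 1, where 1.39% of genes were (0.999% higher, 0.389% lower). By edgeR's test 2 members had an unadjusted p under 0.05, Atf3 at -0.34 (adjusted p = 0.000713) and Junb (unadjusted p = 0.0094). Within codes 1 the log2 fold changes of Junb, Dusp1, Jun, Fosb and Nr4a1 were 0.65, -1.72, -0.95, -2.39 and -0.74. Within codes 2 they were 0.72, -1.19, -0.44, -2.04 and -1.74 in the same order. Only Junb was called within both, at adjusted p = 4.79e-07 and 8.44e-06. Dusp1 had an adjusted p of 0.0277 within codes 1 and 0.0571 within codes 2. With a term for the 4 codes in the fit the same 5 members were called.

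The sums of several marker lists also differed between medium and TNF. The endothelial sum was 285 to 419 CPM in medium and 616 to 964 CPM with TNF, nearly all of it Slc2a1, with means of 354 and 802 CPM. The other endothelial markers were low and did not move as 1. Means in medium and with TNF were 6.25 and 6.17 CPM for Flt1, 2.56 and 1.84 CPM for Pecam1 and 0.659 and 1.93 CPM for Cdh5. Cldn5 was at 0 in every medium library. The microglial marker sum was lower with TNF, in the ranges given above. The border macrophage list summed to 89.5 to 213 CPM (median 127) in medium and 35.1 to 108 CPM (median 51.3) with TNF, led by Mrc1 with a mean of 96.2 CPM in medium and 29.6 CPM with TNF. The astrocyte sum was 52.0 to 99.5 CPM in medium and 16.9 to 69.7 CPM with TNF. Neutrophil markers summed to 0.134 to 14.0 CPM (median 1.59) in medium and to 2.00 to 111 CPM (median 7.85) with TNF, with Ly6g at 0 in every slice library. The part of any of these in the members' change was not tested.

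GM-CSF, a growth factor of myeloid cells that signals through JAK2 and STAT5, was followed by lower levels of 3 members. Atf3, Fos and Dusp1 fell, so that 3 of 10 were called where 10.8% of 11313 genes were called, 4.84% higher and 5.96% lower. The split over all genes depended on the scaling, with 548 higher and 674 lower here and 817 higher and 459 lower with total counts, which moved every log2 fold change by 0.10; Egr2 and Ier2 were then called higher beside the same 3 falls. Atf3 was at 127, 190 and 251 CPM in medium and at 93.6, 106 and 123 CPM with GM-CSF, and all 9 GM-CSF libraries lay below all 9 medium libraries, as for 2.67% of the genes tested. It fell by 0.87 on the log2 scale (SE 0.11, adjusted p = 1.45e-07), or 1.83-fold. Fos was at 53.4, 108 and 340 CPM with GM-CSF and fell by 1.14 (SE 0.31, adjusted p = 0.00696), or 2.21-fold. Dusp1 was at 43.5, 92.8 and 301 CPM and fell by 1.10 (SE 0.37, adjusted p = 0.0263), or 2.14-fold. For Fos and Dusp1 the highest GM-CSF library exceeded the medium median. The microglial marker sum was lower with GM-CSF too. Astrocyte markers summed to 30.9 to 61.1 CPM with GM-CSF, border macrophage markers to 134 to 299 CPM and neutrophil markers to 1.08 to 36.6 CPM (median 9.31), beside the medium ranges given above, and the part of any of these in the falls was not tested.

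Ier2 separated the groups without being called. It was at 73.4, 107 and 119 CPM in medium and at 120, 146 and 173 CPM with GM-CSF, and all 9 GM-CSF libraries lay above the medium range (as for 2.94% of the genes tested), but the log2 fold change of 0.53 (SE 0.10, adjusted p = 5.57e-05) was under the fold limit. Egr2 at 0.56 (SE 0.13, adjusted p = 0.00128), Jun at -0.54 (SE 0.14, adjusted p = 0.00366) and Junb at -0.19 (SE 0.07, adjusted p = 0.0373) were under that limit too. Fosb at -1.16 (SE 0.67, adjusted p = 0.227), Nr4a1 at -0.80 (SE 0.42, adjusted p = 0.165) and Egr1 at -0.23 (SE 0.20, adjusted p = 0.45) did not pass. The members' median was -0.67. Within codes 1 and codes 2 in turn, Atf3 gave -0.93 and -0.80 and was called in both, Fos gave -1.05 (adjusted p = 0.176) and -1.24 (adjusted p = 0.0203), and Dusp1 gave -0.996 (adjusted p = 0.295) and -1.20 (adjusted p = 0.0863). With a term for the 4 codes the same 3 members were called.

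TNF and GM-CSF were measured against the same 9 medium libraries, so they were also compared with each other. Only Junb and Atf3 differed, where 16.2% of 11313 genes were called, 933 genes (8.25%) higher and 900 genes (7.96%) lower. Scaling to total counts moved the log2 differences by -0.17, giving 694 higher and 1514 lower, and Atf3 was then not called. Junb was higher with TNF by 0.88 on the log2 scale (SE 0.06, adjusted p = 1.72e-13), and all TNF libraries lay above the GM-CSF range of 250 to 328 CPM, as for 5.3% of the genes tested. Atf3 was higher with TNF by 0.59 (SE 0.11, adjusted p = 2.84e-05), at 113 to 217 CPM against 93.6 to 123 CPM. At 1.51-fold it sat at the edge of the fold limit: within codes 2 the difference was 0.41 and was not called, and within codes 1 it was 0.67. With a term for the 4 codes Atf3 gave 0.54 (adjusted p = 2.45e-07) and was not called, nor was it with limma-voom or without a filter on low counts, so that Junb alone was called in these fits. The Junb difference was 0.85 and 0.88 within the codes. Fos at 0.58 (SE 0.30, adjusted p = 0.15) did not pass over all libraries and was called within codes 2 alone, at 1.07 (adjusted p = 0.0339) against 0.11 within codes 1. For Dusp1 the difference was -0.35, with a 95% interval of -1.03 to 0.33, so that neither an equal fall nor a fall of unlike size could be told from these libraries.

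**Figure D3:**
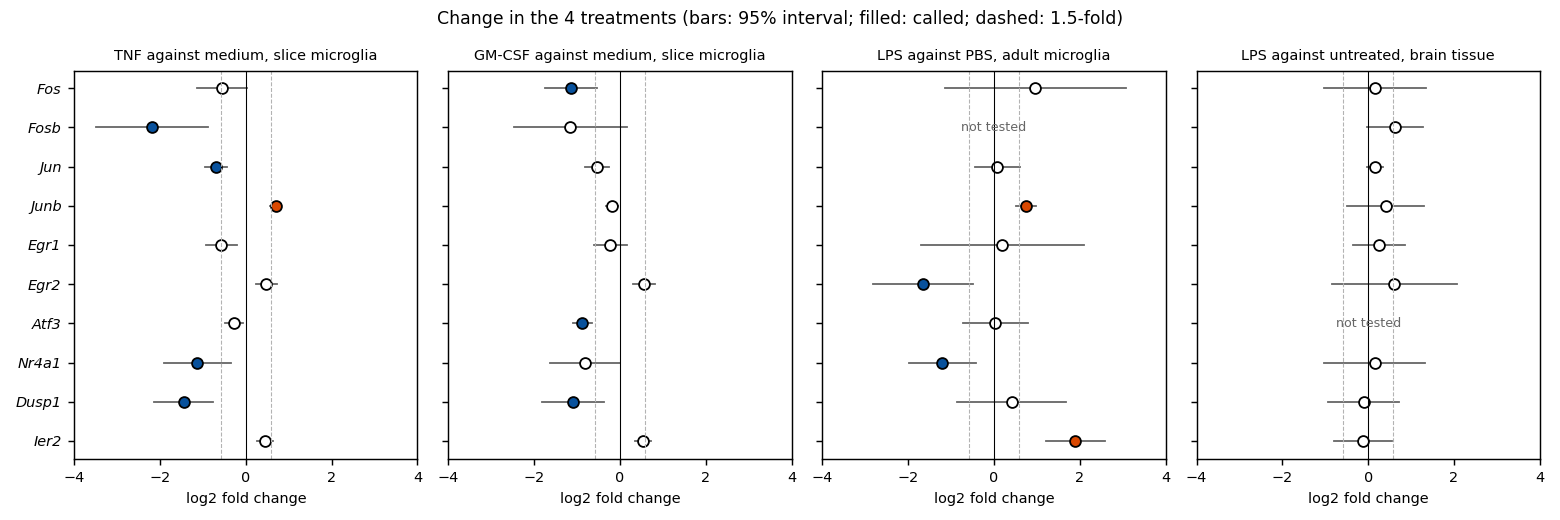
Log2 fold change of each member in the 4 treatments, as circles with 95% intervals as bars, filled for called genes, with dashed lines at a fold of 1.5. Junb is called higher with TNF and in adult microglia after LPS, Dusp1 is called lower with TNF and with GM-CSF, and no member is called in brain tissue.

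LPS, a bacterial cell wall component seen by the receptor Tlr4, changed 4 of the 9 members tested in adult microglia: Junb and Ier2 rose, and Egr2 and Nr4a1 fell. Over all 12987 genes 27.4% were called, 14.4% higher and 13% lower. Ier2 was at 13.4, 20.9, 14.9 and 22.1 CPM after PBS and at 111, 38.0, 60.4 and 55.9 CPM after LPS. All 4 LPS libraries lay above the PBS range, as for 24.1% of the genes tested, and Ier2 rose by 1.90 on the log2 scale (SE 0.35, adjusted p = 0.00294), or 3.73-fold. Junb was at 197 to 209 CPM after PBS and at 419, 257, 345 and 342 CPM after LPS, again without overlap, and rose by 0.74 (SE 0.12, adjusted p = 0.000371). Both calls held whichever library was left out, with log2 fold changes of 1.52 to 2.09 for Ier2 and 0.62 to 0.86 for Junb. Nr4a1 had 28, 42, 25 and 48 reads after PBS and 21, 9, 23 and 6 after LPS, and fell by 1.21 (SE 0.40, adjusted p = 0.023). Egr2 had 33, 25, 22 and 42 reads after PBS and 26, 6, 3 and 2 after LPS, and fell by 1.66 (SE 0.60, adjusted p = 0.037). These 2 falls rest on few reads: the Egr2 call ended for 7 of 8 libraries left out, all but LPS 1 (adjusted p = 0.0556 to 0.0964), and the Nr4a1 call for 3 of 8, which were LPS 4, PBS 2 and PBS 4 (adjusted p = 0.0520 to 0.0746).

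For Fos, Egr1 and Dusp1 the first LPS library stood highest. Fos was at 26.00, 5.47, 3.22 and 6.69 CPM after LPS, Egr1 at 32.2, 5.81, 2.91 and 3.45 CPM, and Dusp1 at 20.75, 9.58, 4.90 and 5.07 CPM. In each, the first library was the highest of the group and the other 3 lay within the PBS range. Atf3 was at 28.3, 10.5, 8.51 and 24.1 CPM after LPS, so that both the first and the last library were high. Fos gave a log2 fold change of 0.96 (SE 1.07, 95% interval -1.14 to 3.07, adjusted p = 0.491), Dusp1 0.41 (SE 0.65), Egr1 0.20 (SE 0.97), Jun 0.07 (SE 0.27) and Atf3 0.03 (SE 0.38), none of them past the test. Without that library Fos gave -0.06, Egr1 -1.27 (adjusted p = 0.224), Egr2 -2.92 (adjusted p = 0.000463), Nr4a1 -1.41 (adjusted p = 0.0235), Junb 0.62 (adjusted p = 0.000316) and Ier2 1.52 (adjusted p = 0.000378), and the same 4 genes were called. That library had 14216005 reads. Mitochondrial genes took 0.409% to 0.465% of the reads after PBS and 0.580% to 0.696% after LPS, and the part of this in the members' changes was not tested. Fosb was too low to be tested, with 0 to 19 reads per library. Neutrophil markers summed to 20.3 to 44.7 CPM after PBS and 1.61 to 5.24 CPM after LPS. S100a8 led them, with means of 14.6 and 2.04 CPM. Ly6g and Retnlg were at 0 in all LPS libraries, but at no more than 0.0804 and 0.0720 CPM after PBS. The microglial sum was lower after LPS, in the ranges given above. Astrocyte markers, nearly all of them Slc1a3, summed to 253 to 279 CPM after PBS and 145 to 180 CPM after LPS, oligodendrocyte markers to 75.6 to 88.7 CPM and 59.0 to 67.6 CPM, and monocyte markers to 6.68 to 8.47 CPM and 3.99 to 5.75 CPM. Border macrophage markers summed to 8.44 to 14.3 CPM after PBS and 12.8 to 20.8 CPM after LPS. The endothelial sums overlapped, at 91.7 to 114 CPM and 90.7 to 137 CPM. Within that list mean Slc2a1 was 70.6 CPM after PBS and 111 CPM after LPS, and mean Pecam1 was 32.6 and 10.9 CPM. The part of any of these in the members' changes was not tested.

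In brain tissue after the same dose no member was called, out of 9 tested, where 3.18% of 15083 genes were called, 2.63% higher and 0.55% lower. None had an unadjusted p under 0.05 in edgeR's test, the smallest being 0.102, and DESeq2 and limma-voom called 0 as well. Fos was at 36.4, 47.6, 13.1 and 13.8 CPM after LPS, inside and just above the untreated range of 8.32 to 40.8 CPM, with a log2 fold change of 0.16 (SE 0.61). Nr4a1 was at 139, 143, 49.9 and 40.7 CPM and Egr1 at 356, 375, 187 and 216 CPM. In all of these genes the first and second LPS brains were high and the other two low. Fosb gave 0.63 (SE 0.33, adjusted p = 0.315) and Jun 0.16 (SE 0.09, adjusted p = 0.316). Ier2, the member with the largest rise in sorted cells, was at 8.32, 10.8, 5.91 and 4.15 CPM against 4.31, 9.31, 7.64 and 10.4 CPM in untreated brain, a log2 fold change of -0.12 with a 95% interval of -0.79 to 0.56. Atf3, with 4 to 14 reads after LPS, was not tested. Mitochondrial genes took 6.01% to 6.10% of the reads in untreated and 5.54% to 5.88% in LPS brains. Oligodendrocyte markers summed to 5701 to 6236 CPM in untreated and 4423 to 5178 CPM in LPS brains. In the same order, astrocyte markers summed to 1040 to 1105 and 1135 to 1379 CPM, and endothelial markers to 222 to 230 and 264 to 313 CPM. Microglial markers summed to 291 to 329 and 291 to 452 CPM. The part of any of these in the members' levels was not tested. The controls of the brain group were not injected, unlike those of the sorted cells.

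The LPS effect was compared between sorted microglia and brain tissue through an interaction term, for which 19.7% of 16676 genes were called. Ier2 alone among the members differed, with an effect larger by 2.01 in sorted cells (SE 0.54, adjusted p = 0.012). Its call held in all 16 fits that left out 1 library, at 1.64 to 2.25. The difference was -2.27 for Egr2 (SE 1.08, adjusted p = 0.14), -1.37 for Nr4a1, 0.80 for Fos and 0.33 for Junb, and these did not pass. Without the first LPS library of adult microglia the Egr2 difference was -3.53 (adjusted p = 0.0472) and was called. Hence Junb, called in sorted cells and not in tissue, was not shown to differ between them.

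The spread of the members between libraries of 1 group differed between tables. In brain tissue they were among the most variable genes of all: the biological coefficient of variation was 0.597 for Fos, 0.742 for Egr2 and 0.581 for Nr4a1, against a median of 0.0736, and 8 of the 9 tested members lay at the percentile 97.9 or above among all genes. Jun, at 0.0839, lay at the percentile 57.6. In adult microglia Fos (1.05) and Egr1 (0.903) again stood at the percentiles 99.6 and 99.5, while Junb (0.126) was close to the median of 0.123. In slice microglia, with a median of 0.233, only Fosb (0.946) reached such a rank, at the percentile 97.1, and Junb (0.106) was at the percentile 3.06.

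**Figure D4:**
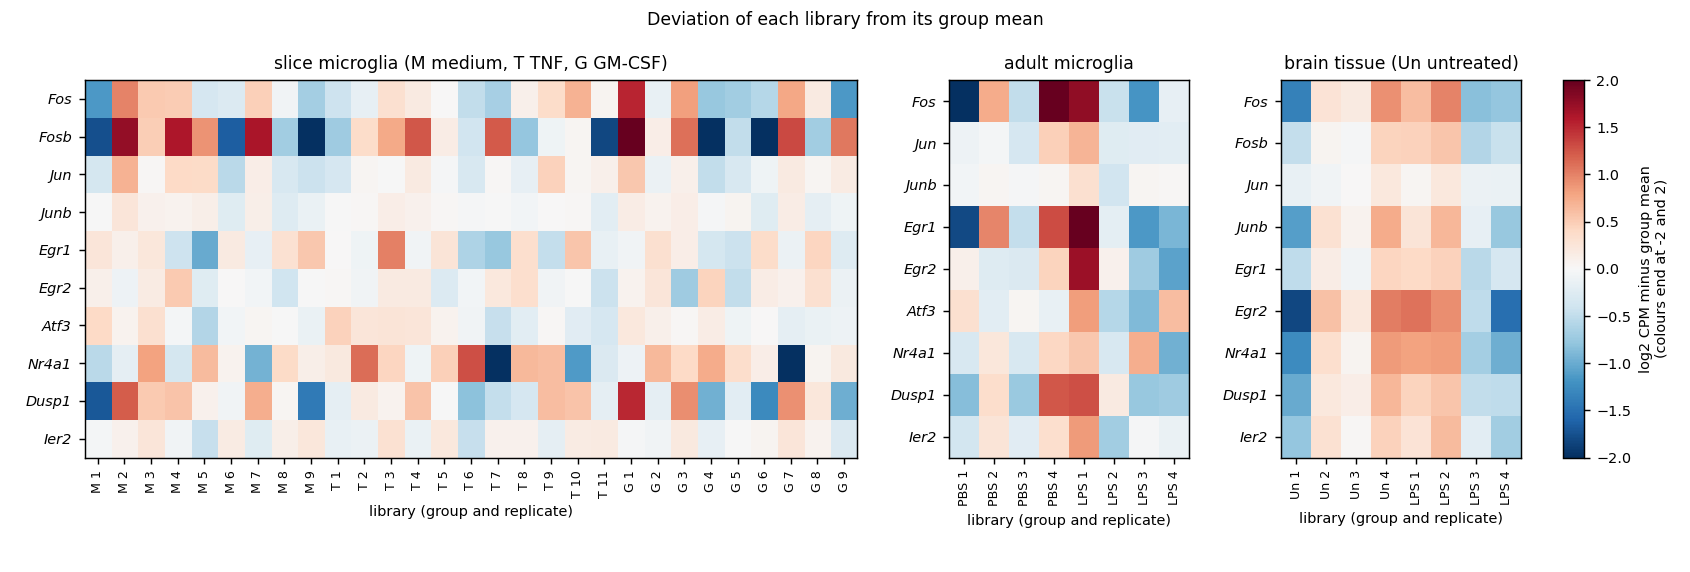
Deviation of each tested member (rows) from its group mean in each library (columns) of the 3 tables, as log2 CPM minus the group mean, with colours that end at -2 and 2. In brain tissue the colours run in whole columns, with all 9 genes below the group mean in untreated brain 1 and above it in LPS brain 2, whereas the slice columns are mixed.

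Within brain tissue the members moved up and down together from mouse to mouse. All 36 pairs of the 9 tested members had a positive correlation of their deviations from the group mean, 0.807 to 0.994 with a median of 0.951, over 8 libraries. Averaged over members, with each gene scaled to an SD of 1, the deviations were -1.41, 0.29, 0.07 and 1.05 in the untreated brains and 0.72, 1.09, -0.78 and -1.03 in the LPS brains. Every group thus held high and low mice. In adult microglia 35 of 36 pairs were positive, with a median of 0.563 (-0.349 to 0.941) over 8 libraries, and the mean scaled deviations were -0.56, 0.21, -0.42 and 0.78 after PBS and 1.54, -0.64, -0.43 and -0.46 after LPS. In the 29 slice libraries 24 of 45 pairs were positive, with a median of 0.0445 and a range of -0.281 to 0.918. There Fos, Fosb, Jun, Junb and Dusp1, a set picked after these values were seen, had 10 pairs at 0.521 to 0.918, led by Fos with Dusp1. Their 25 pairs with the other members lay between -0.281 and 0.327, while Egr1 with Ier2 gave 0.694. These correlations describe libraries that share a table and its scaling, and carry no test.

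**Figure D5:**
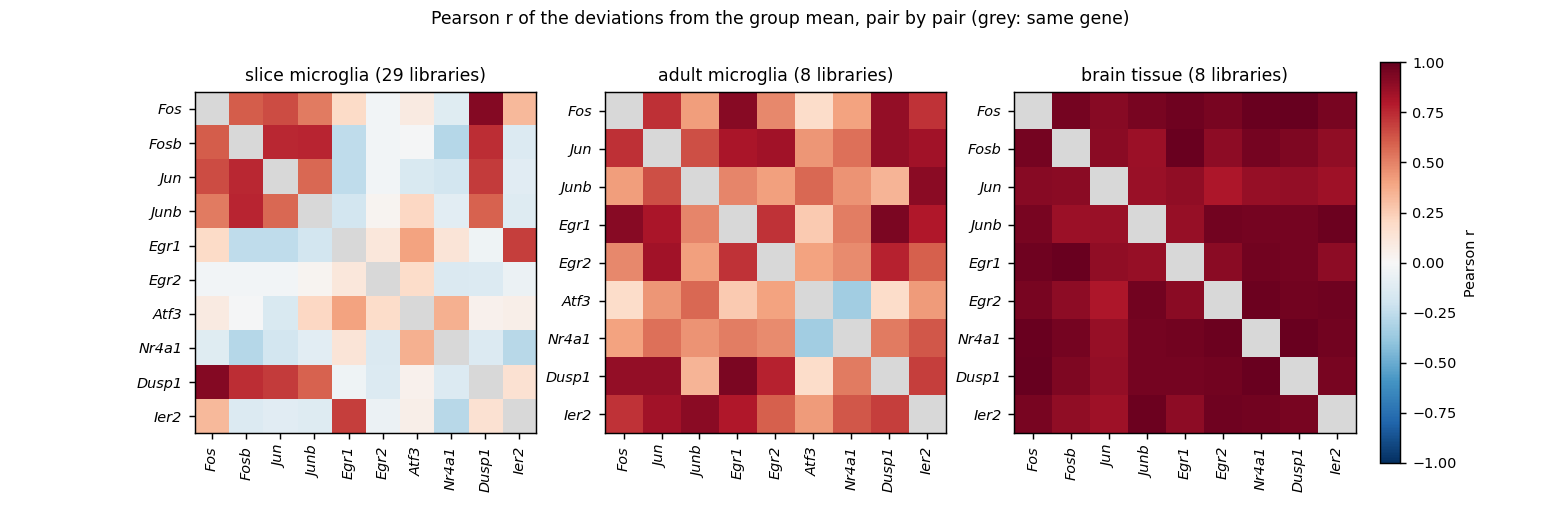
Correlation of within-group deviations for every pair of members in the slice (29 libraries), adult (8 libraries) and brain (8 libraries) tables, as Pearson's r on a colour scale from -1 to 1 with grey for a gene with itself. The brain panel is uniformly high, at 0.807 to 0.994, whereas the slice panel holds 24 positive pairs of 45 and its strongest pair is Fos with Dusp1 at 0.918.

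Fos and Egr1, the 2 members read most often as marks of recent activity, serve as an example. Their deviations in the 29 slice libraries had Pearson's r = 0.193 (permutation p = 0.316) and Spearman's rho = 0.182 (permutation p = 0.342), and r = 0.206 over 27 libraries once the 2 farthest were left out. Within treatments r was -0.172 in medium, 0.646 with TNF and 0.261 with GM-CSF, and within the title codes 0.134 and 0.224.

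The genes whose deviations across libraries were most like the mean of the members differed by table. In brain tissue the closest of 10200 genes were Dusp6 (r = 0.997), a phosphatase of ERK, Arc (0.988), a synaptic gene of active neurons, Actg1 (0.983), Npas4 (0.983), a transcription factor induced by neuronal activity, Midn (0.974), Trib1 (0.974), Irf2bpl (0.970) and Map1lc3a (0.966), over 8 libraries. In adult microglia the closest of 8872 genes was Zfp36 (0.985), whose protein destabilises short-lived messages, followed by Arhgap9 (0.959), Taldo1 (0.953), Coro1a (0.952), Bin3 (0.949), Akt1s1 (0.940), Wdr83 (0.934) and Gtf2e1 (0.927). In slice microglia Zfp36 was again first of 8004 genes (0.780), over 29 libraries, before Zfp574 (0.735), Zfand2a (0.710), Stat6 (0.707), Trak1 (0.690), Mfhas1 (0.685), Spen (0.681) and Ski (0.680). These values were chosen as the highest of many and are given as a description, with no test.

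Other genes of the same programme were followed through lists. With TNF 5 of 24 other immediate early genes rose and 5 fell, where 9.1% of all genes were called higher and 11.7% lower. Ier3, an early gene that guards against cell death, rose by 1.21 (SE 0.07, adjusted p = 1.49e-15), and Zfp36l2 fell by 1.20 (SE 0.11, adjusted p = 1.06e-11). Of 8 other AP-1 and Maf genes 3 rose, Maff the most by 0.96, and 1 fell, Batf3 by 1.25. Of 8 other dual-specificity phosphatases 3 rose, led by Dusp5 at 1.25, and none fell, against the fall of Dusp1. Among SRF and its cofactors 1 of 6 rose (Elk1, 1.03) and among the Egr, Nr4a and Nab genes 1 of 4 (Nab1, 1.03). Of 6 early chemokine and cytokine genes 4 rose, led by Il1b at 3.70 (SE 0.22, adjusted p = 5.39e-16).

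With GM-CSF 2 of 24 other immediate early genes rose, led by the growth regulator Myc at 1.44 (SE 0.11, adjusted p = 5.99e-12), and 7 fell, led by the antiproliferative gene Btg2 at -0.93 (SE 0.13, adjusted p = 6.30e-07), where 4.84% of all genes were called higher and 5.96% lower. By edgeR's test 0 of 8 AP-1 and Maf genes, 0 of 4 Egr, Nr4a and Nab genes and 0 of 6 SRF genes were called, with 2, 0 and 4 in turn at an unadjusted p under 0.05. Dusp5 rose by 1.02, as 1 of 8 phosphatases. Il1b rose by 1.49 (SE 0.22), with 2 of 6 early chemokine and cytokine genes called.

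After LPS 7 of 24 other immediate early genes rose in adult microglia, led by Ier3 at 3.27 (SE 0.44, adjusted p = 0.000637), and 6 fell, led by Rhob at -1.58 (SE 0.19, adjusted p = 0.000182), where 14.4% of all genes were called higher and 13% lower. Fosl2 was the AP-1 gene with the largest rise (1.09), as 1 of 3 that rose of 7, and Jund fell by 0.85. Dusp2 rose by 1.99 and Dusp7 fell by 1.02, with 2 of 7 phosphatases called each way. In brain tissue 4 of 21 other immediate early genes rose, led by Klf4 at 1.42 (SE 0.21, adjusted p = 0.000638), and none fell. Of 7 AP-1 and Maf genes only Maff rose (1.91, SE 0.37), and Dusp4 (0.59) was the only 1 of 7 phosphatases. By the same test 0 of the 9 neuronal activity genes were called in brain, with 0 at an unadjusted p under 0.05. Over all genes 3.18% were called in brain, 2.63% higher and 0.55% lower. At such a share, 0 calls among the 9 members tested do not set the members apart from other genes.

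Against untreated brain, 13 of 21 other immediate early genes were higher in PBS adult microglia and 5 were lower, where 33.5% of all genes were called higher and 46.4% lower. In medium slice microglia 19 of 21 were higher and none lower, where 30.9% were called higher and 49.6% lower. Genes at 0 in every library of a table were left out of these counts, among them Btg2, Ier5 and Rgs1. Zfp36, the gene most like the members in both sorted tables, was at 4.09 ± 0.622 CPM in untreated brain (n = 4), 139 ± 26.8 CPM in PBS adult microglia (n = 4) and 275 ± 37.8 CPM in medium slice microglia (n = 9). All 7 neuronal activity genes were lower than brain in both kinds of sorted cell. Between the sorted cells, 15 of 21 other immediate early genes were higher in slices, led by the stress gene Gadd45b at 5.12, and 3 were lower, led by Zfp36l2 with a log2 difference of -1.40, where 25% of all genes were called higher and 30.4% lower.

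For 3 members, reads from short shared stretches cannot be assigned to them alone. Exons of Jun share 232 of their 3189 bases with the antisense gene Junos. Those of Junb share 173 of 2301 bases with Prdx2, and those of Dusp1 share 11 of 3311 bases with Ergic1. The setting of the counters for strand is not given in the sources used here. On GRCm38 the members lie at chr12:85473890-85477273 (Fos), chr7:19302696-19310051 (Fosb), chr4:95049034-95052222 (Jun), chr8:84974484-84978718 (Junb), chr18:34859823-34864984 (Egr1), chr10:67535475-67542188 (Egr2), chr1:191170296-191218039 (Atf3), chr15:101254269-101274795 (Nr4a1), chr17:26505590-26562128 (Dusp1) and chr8:84661331-84662852 (Ier2), so that only Junb and Ier2 share a chromosome.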

How the data were processed

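RNA-seq of 29 slice microglia, 8 adult microglia and 8 brain tissue samples was used. For slice microglia the authors deposited read counts per gene; the submitters' processing notes name STAR 2.7.0a, featureCounts, Subread 1.6.4 and mm10. For adult microglia and brain the authors deposited expected counts, which were rounded (table totals changed by 0.00107% and 0.00113%); for these tables the aligner and counter, and for all the strand setting, were not given in the sources used here. Sorted cells were prepared with SMART-Seq v4 and Nextera XT, brain RNA with TruSeq. For brain, 92 rows name no gene and held 0 counts. Identifiers were named with GENCODE M21, which matched 55450 of 55450 (slice), 47224 of 47643 (adult) and 42929 of 43411 (brain). Each table was fitted alone for the 4 treatments. For the comparisons across tables, counts of shared genes were joined and normalised together. Tests were edgeR 4.0.16 quasi-likelihood F tests (R 4.3.3) with TMM factors, filterByExpr (minimum count 10, minimum total 15) and Benjamini-Hochberg adjustment over all genes tested, and calls needed an adjusted p under 0.05 and a fold over 1.5. The main edgeR fit was tested on simulated counts for TNF against medium, the LPS comparisons of adult microglia and of brain, and PBS adult microglia against brain. The other steps were not tested on simulated data. Levels are CPM with the TMM factors of each table, divided by exon length where genes are compared. The study describes independent mice for its in vivo LPS reference samples and 4 independent experiments for the slice samples, but which slice sample came from which experiment or litter is not given in the sources used here, so samples of 1 experiment enter as separate samples and p-values measure the spread between these samples. Intervals cover 95%. Alternatives were another scaling, filter or tool (DESeq2 1.42.0, limma-voom from limma 3.58.1), the title codes, a replicate block and libraries left out; a fit without genes at 0 in a whole table was added after the data were seen. All 10 members are reported in every comparison; of each list of related genes, the called gene with the largest rise and that with the largest fall could be named, and for likeness the 8 genes with the highest correlation. The members and lists were chosen with earlier results of these data known.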

Additional observations from a re-analysis of the deposited data

Results flagged for a closer look

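A library that stood apart from the rest of its group, by Dixon's test at the 95% level, was found for 5 of 60 combinations of a member and a group. The TNF group, with 11 libraries, was not tested. Chance alone gives about 1 in 20 for normally spread values, and hits in correlated members are not independent. In adult microglia the first LPS library was the outlying one for 3 genes. It held Fos at 26.0 CPM with the next library at 6.69 CPM, Egr1 at 32.2 CPM with the next at 5.81 CPM, and Jun at 361 CPM with the next at 194 CPM. The fourth PBS library held Fosb at 1.37 CPM, or 19 reads, where the next had 0.0804 CPM, or 1 read. Among slices given GM-CSF, the seventh library held Nr4a1 at 0.393 CPM, where the next lowest had 3.03 CPM.

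The effect of LPS on Ier2 differed between sorted adult microglia and brain tissue, with an interaction of 2.01 on the log2 scale (SE 0.54, adjusted p = 0.012 by edgeR's test). In sorted cells Ier2 was higher in 4 of 4 LPS libraries than in any PBS library, while in brain the groups overlapped. Library kit, read layout and the kind of control animal coincide with this comparison.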

How the results depend on the processing

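Over all alternatives, 1401 of 1471 values of single members kept their side of the threshold, 41 lost a call, 29 gained a call and 0 changed the sign of a called value. The 1401 include uncalled values whose sign changed. For LPS in adult microglia, Egr1 ran from -1.27 to 0.66 over the libraries left out. No member was called in brain tissue after LPS under any alternative. Without the fold limit the number of members called was 9 with TNF (5 with it), 7 with GM-CSF (3 with it) and 1 between the title codes (0 with it). Scaling to total counts gave 5 with GM-CSF. For TNF against GM-CSF, 1 member was called (2 otherwise) with total counts, with limma-voom, with no filter on low counts and with a term for the title code, Junb in each. Slices of codes 2A and 2B alone gave 2 with TNF. The stricter filter of 5 CPM left 2 of the 4 calls in adult microglia after LPS, and tested 7 members where 9 were tested otherwise. The fit over all 45 samples gave 2 calls for the interaction (1 otherwise), Egr2 being added at -2.25 (adjusted p = 0.0209). Leaving out 1 library at a time gave 2 to 4 calls for LPS in adult microglia, 0 to 0 in brain, 1 to 2 for the interaction, 8 to 10 for PBS adult microglia against brain, 8 to 8 for medium slices against brain and 9 to 10 for medium slices against PBS adults, where in these last 2 only the 4 untreated brain or the 4 PBS libraries were left out in turn, and not the 9 medium slice libraries. Single calls lost to a tool or filter were Fosb with TNF (limma-voom, adjusted p = 0.0771), Dusp1 with GM-CSF (no filter, adjusted p = 0.0595), Egr2 in PBS adult microglia against brain (limma-voom, adjusted p = 0.113) and Nr4a1 in medium slices against PBS adults (limma-voom, adjusted p = 0.162). Against brain, Fosb in medium slices was called by DESeq2 at -1.78, with limma-voom at -2.15 and with relative log expression factors, which moved that comparison by -0.35 and PBS adult microglia against brain by -0.16, at -1.77; Egr1 was called with them at -0.79. Total counts moved medium slices against PBS adults by -0.19. The causes were not tested.

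Over all genes, leaving the fold limit out raised the calls to 4476 with TNF (2353 with it), 2892 with GM-CSF (1222), 3486 between them (1833), 6703 for LPS in adult microglia (3563), 1533 in brain (479), 5136 for the interaction (3289) and 1109 between the title codes (157). Codes 2A and 2B alone gave 785 with GM-CSF, the stricter filter 295 in brain and the fit over all 45 samples 1616 for the interaction. Between the title codes, no filter gave 243 and medium slices alone 71.

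Groups share replicate numbers. The correlation of same-numbered samples was over 0.1 for 0 of 4 pairs in adult microglia and 0 of 4 in brain. It was over 0.1 for 2 of 9 pairs with GM-CSF and 4 of 9 with TNF, and all slice pairs were positive. The slice titles also carry running numbers. The 4 TNF pairs over 0.1, replicates 1 to 4 (0.107 to 0.184), are those with consecutive running numbers. Other slice replicate numbers follow the running numbers only in part. A pairing by running number was thus not tested by this check or by the replicate block. With the replicate block 6 members were called with TNF (Egr1 added at -0.62), 2 with GM-CSF (Dusp1 at adjusted p = 0.0507), 2 for TNF against GM-CSF, 3 for LPS in adult microglia (Nr4a1 at adjusted p = 0.0503) and 0 in brain. Over all genes the block gave 2423, 1258, 1828, 3452 and 448 calls in the same order.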

Other observations

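Beside the early genes, the heat shock genes, whose products refold damaged proteins, were followed because dissociation is known to raise them too. In adult microglia 8 of 9 tested rose after LPS, led by Hspa1b at 3.40 on the log2 scale (SE 0.71, adjusted p = 0.00558 by edgeR's test), and none fell, where 14.4% of all genes were called higher. In brain tissue 4 of 10 rose, led by Hspb1 at 1.52 (SE 0.19, adjusted p = 0.000112), where 2.63% of all genes were called higher. In slices 2 of 8 rose with TNF and 3 of 8 with GM-CSF, and Hspd1, a mitochondrial chaperone, was the highest in both, at 0.77 and 1.08, where 9.1% and 4.84% of all genes were called higher. In PBS adult microglia 2 of 10 were higher and 4 lower than in untreated brain (33.5% and 46.4% of all genes), and in medium slices 2 of 10 were higher and 7 lower (30.9% and 49.6%). Between the sorted control cells 1 of 10 was higher in slices (Bag3, 2.01) and 2 were lower, among them Hspa1b with a log2 difference of -4.50 (25% and 30.4% of all genes were called higher and lower).

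Of the genes that follow neuronal activity, Homer1 was called higher with TNF (0.77), with GM-CSF (0.83) and in adult microglia after LPS (1.30). Npas4 and Nr4a3 were at 0 in every medium slice library.

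The 181 protein-coding genes listed at 0 in all 8 brain libraries, while above 1 CPM in both sorted tables, comprised 130 on chromosome 1 and 51 on chromosome 2. Of the 51 protein-coding genes within 5 Mb of Atf3, 49 had counts in brain. The count of members called was the same without these genes: 1 for the interaction, 10 for PBS adult microglia against brain, 8 for medium slices against brain and 9 for medium slices against PBS adults.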
